A study of Mus musculus with 18 samples.

Results

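The costimulatory and checkpoint surface genes Cd40, Cd80, Cd86, Icosl, Tnfsf4, Tnfsf9, Icam1, Cd69, Tarm1 and Cd274 encode proteins with which a macrophage instructs or restrains lymphocytes or signals its own activation. They were matched by mouse symbol to the Entrez identifiers of the deposited count tables, and all 10 were found among the 24052 genes listed. RNA came from bone marrow-derived macrophages, cells grown from C57BL/6 mouse marrow under 20 ng/ml M-CSF, a macrophage growth factor, and libraries read the 3′ ends of transcripts with a poly(A) tail. In experiment 1, all cells were wild type and held under one of 4 conditions with 3 libraries each. These were vehicle for 12 h, 0.25 mM dimethyl itaconate for 12 h, vehicle followed by 100 ng/ml LPS (bacterial lipopolysaccharide) for 4 h, and dimethyl itaconate followed by the same LPS stimulus. Dimethyl itaconate, called the compound here, is an ester of itaconate that enters cells and is not itaconate itself. In experiment 2, 3 libraries of Irg1-/- cells and 3 of wild-type cells were compared, and all 6 had received 100 ng/ml LPS with 50 ng/ml interferon gamma for 24 h, and no unstimulated group of that experiment was analysed here. The enzyme that produces itaconate in activated macrophages is the product of Irg1, now named Acod1. The labels do not say whether replicates were separate animals or separate cultures, so p-values measure only the spread between these libraries, which may be technical.

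A T cell that meets its antigen is activated fully only when the presenting cell also delivers a second signal. CD80 and CD86 deliver it through CD28, ICOS ligand through ICOS, and the TNF-family ligands OX40L (Tnfsf4) and 4-1BBL (Tnfsf9) through their receptors on activated T cells. CD40 works in the opposite direction, since it receives CD40 ligand from T cells and signals to NF-kB in the macrophage. PD-L1 (Cd274) engages PD-1 and restrains the T cell, and toll-like receptor ligands and interferons are known inducers of many of these genes in macrophages.

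In the mm10 build (GRCm38), the receptor gene Cd40 (Entrez gene 21939) lies on chromosome 2 from 165055614 to 165071654. The B7-family ligand genes Cd80 (12519) and Cd86 (12524) lie on chromosome 16 from 38457430 to 38495958 and from 36568956 to 36666158, and Icosl (50723) on chromosome 10 from 78069368 to 78079525. The TNF-family ligand genes Tnfsf4 (22164) and Tnfsf9 (21950) lie on chromosome 1 from 161395438 to 161418206 and on chromosome 17 from 57105287 to 57107758. Icam1 (15894) lies on chromosome 9 from 21015940 to 21028814, Cd69 (12515) on chromosome 6 from 129267324 to 129275375, Tarm1 (245126) on chromosome 7 from 3486499 to 3502754, and Cd274 (60533) on chromosome 19 from 29362107 to 29388095. All 10 are annotated as protein coding. Whether reads were counted by strand is not stated, so reads within a stretch that overlapping genes share cannot be told apart. Cd274 overlaps Plgrkt, a gene with 3047 counts over experiment 1 and 2679 over experiment 2, and Tnfsf9 overlaps the long non-coding RNA gene Gm11110, with 51 and 232 counts. The stretch shared with Plgrkt ends at 29367292, at the 5′ side of Cd274, whereas the libraries read 3′ ends.

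Promoters from 250 bases before to 50 bases after the transcription start were matched for 5 of the 10 members in the RefSeq table of GRCm38.p6 (Cd80, Cd274, Icam1, Icosl and Tarm1). They were searched on both strands for the NF-kB consensus, written GGGRNWYYCC (R is A or G, W is A or T, Y is C or T, N is any base). The other motifs were the interferon-stimulated element written TTTCNNTTT, the gamma-activated site written TTCNNNGAA and the antioxidant response element written TGACNNNGC. The NF-kB consensus is bound by the factor that LPS signalling releases. Interferon-activated factors bind the interferon-stimulated element and the gamma-activated site, and NRF2, the regulator of antioxidant genes, binds the antioxidant response element. Motif positions count the start base as 0. The sequences of Cd80, Cd274 and Icam1 are shown because these members rose with LPS and hold an interferon-type motif. That of Tarm1 is shown because its level rose with the compound alone, a choice made after its values were seen. Each is written 5′ to 3′ along the gene, with the motif in capitals. They lie at chr16:38458683-38458982 on the plus strand (Cd80), chr19:29367188-29367487 on the plus strand (Cd274), chr9:21015690-21015989 on the plus strand (Icam1) and chr7:3502575-3502874 on the minus strand (Tarm1). The start used for Cd80, Cd274 and Tarm1 lies inside the annotated gene and not at its outer end.
Cd80: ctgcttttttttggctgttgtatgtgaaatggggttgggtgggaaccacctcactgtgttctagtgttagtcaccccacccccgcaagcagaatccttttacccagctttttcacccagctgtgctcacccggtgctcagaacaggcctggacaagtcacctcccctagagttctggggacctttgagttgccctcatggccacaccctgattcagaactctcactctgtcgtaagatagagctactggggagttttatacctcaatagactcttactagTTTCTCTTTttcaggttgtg
Cd274: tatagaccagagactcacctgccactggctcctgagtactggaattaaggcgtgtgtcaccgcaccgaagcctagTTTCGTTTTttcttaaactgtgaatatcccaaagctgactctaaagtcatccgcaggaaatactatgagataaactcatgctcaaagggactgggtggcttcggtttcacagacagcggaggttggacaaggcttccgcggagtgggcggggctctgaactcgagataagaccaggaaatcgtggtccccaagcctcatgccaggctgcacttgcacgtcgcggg
Icam1: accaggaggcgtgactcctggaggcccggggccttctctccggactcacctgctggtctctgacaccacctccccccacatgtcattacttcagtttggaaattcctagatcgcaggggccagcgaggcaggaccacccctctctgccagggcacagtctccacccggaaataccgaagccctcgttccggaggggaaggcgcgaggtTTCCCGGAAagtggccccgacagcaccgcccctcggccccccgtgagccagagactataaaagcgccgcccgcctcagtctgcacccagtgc
Tarm1: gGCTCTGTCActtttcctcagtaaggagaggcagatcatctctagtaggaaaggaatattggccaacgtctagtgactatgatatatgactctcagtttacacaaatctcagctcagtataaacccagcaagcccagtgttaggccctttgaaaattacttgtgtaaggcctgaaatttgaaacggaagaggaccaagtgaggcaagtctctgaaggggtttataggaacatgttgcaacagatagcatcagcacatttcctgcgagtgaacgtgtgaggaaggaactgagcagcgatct

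The capitals in Cd80 mark an interferon-stimulated element from base 30 to base 38 after the start, and those in Cd274 the same kind of element from -175 to -167. In Icam1 they mark a gamma-activated site from -42 to -34 that reads as such on either strand. In Tarm1 they mark an antioxidant response element from -249 to -241, which lies on the opposite strand and reads TGACAGAGC there. No listed motif was found in the Icosl promoter, and none of the 5 held a full match to the NF-kB consensus in this window. Near matches were not counted, and the Icam1 sequence holds tggaaattcc, which misses the consensus at its first base alone. Among all 32851 promoters of the table, 4.51% held the NF-kB consensus, 10.6% the interferon-stimulated element, 8.3% the gamma-activated site and 12.4% the antioxidant response element. These matches describe letters in a window and were not tested for binding.

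The libraries of experiment 1 held 955718 to 7629669 counts and those of experiment 2 held 3088644 to 5491684. The shallowest library was LPS replicate 3, and some of the values that leaving it out moved are also given without it. Levels are given in CPM, a gene's counts relative to the TMM-scaled library total. Differences are edgeR log2 fold changes ± their standard error, called at an adjusted p (Benjamini-Hochberg, all tested genes) under 0.05. Macrophage markers were detected in all groups (8 of 8), with summed levels from 3242 to 7592 CPM in experiment 1 and from 2042 to 2458 in experiment 2. In the vehicle, compound, LPS and compound plus LPS groups these sums ran from 5325 to 7592, 3242 to 4289, 4439 to 4717 and 4058 to 5152 CPM. Markers of dendritic cells, which also carry these surface genes, summed to at most 11.6 CPM in any library of experiment 1. These sums ran from 3.01 to 7.47 CPM (vehicle), 0.706 to 2.31 (compound), 0 to 11.6 (LPS) and 0.919 to 2.18 (compound plus LPS). Among these markers, Clec9a averaged 4.23 CPM after LPS and 0.365 CPM after compound plus LPS. In experiment 2 the sum lay between 14.8 and 25.9 CPM, and 6 of the 8 markers were detected in each genotype. Xcr1 averaged 8.31 CPM in wild type and 7.38 CPM in Irg1-/- cells there. Flt3, one of the defining genes, was at 0 in all 18 libraries. Of the 7 B cell markers, Blk and Pax5 were at 0 throughout and the sum reached at most 7.86 CPM, while T and NK cell markers reached at most 5.44 CPM. Summed neutrophil markers lay between 155 and 395 CPM in experiment 1 and between 8.81 and 18.9 in experiment 2. Summed stromal and endothelial markers ranged from 32.8 to 59.1 CPM (vehicle), 21.8 to 26.2 (compound), 48.9 to 80.8 (LPS) and 29.4 to 43.1 (compound plus LPS). Their part in the results was not tested.

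LPS raised all 10 members in macrophages that had received vehicle. Fold changes ran from 5.09-fold for Cd80 to 918-fold for Cd69, and for none of the members did the LPS and vehicle libraries overlap, where 44.0% of all tested genes did not (16.7% higher and 27.3% lower). For Cd80 that separation rests on 1 count in LPS replicate 3. The compound alone raised 3 of the 10, Cd40, Cd69 and Tarm1, and lowered none. Compound and vehicle libraries did not overlap for 4 members, where 30.6% of all tested genes did not (14.6% higher and 16.0% lower). Compound plus LPS and compound libraries did not overlap for 9 members, where 44.6% of all tested genes did not (22.3% higher and 22.3% lower). In cells given LPS, prior compound lowered 8 of the 10, and Icosl and Tarm1 did not pass the test. All 10 passed the filter on low counts among the 10285 genes tested in experiment 1. For LPS against vehicle, 34.3% of tested genes were called (16.0% higher and 18.4% lower), and the members' median log2 difference was 6.21 beside -0.24 over all genes. Against vehicle, 2.84% of genes were called for the compound (1.33% higher and 1.51% lower), with medians of 0.28 for the 9 members with a fold and -0.05 for all genes. For compound plus LPS against LPS, 15.9% of genes were called (8.38% higher and 7.53% lower), and the medians were -1.83 and 0.13. In bulk RNA, a change in the share of cells that express a gene cannot be told apart from a change in RNA per cell.

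**Figure D1:**
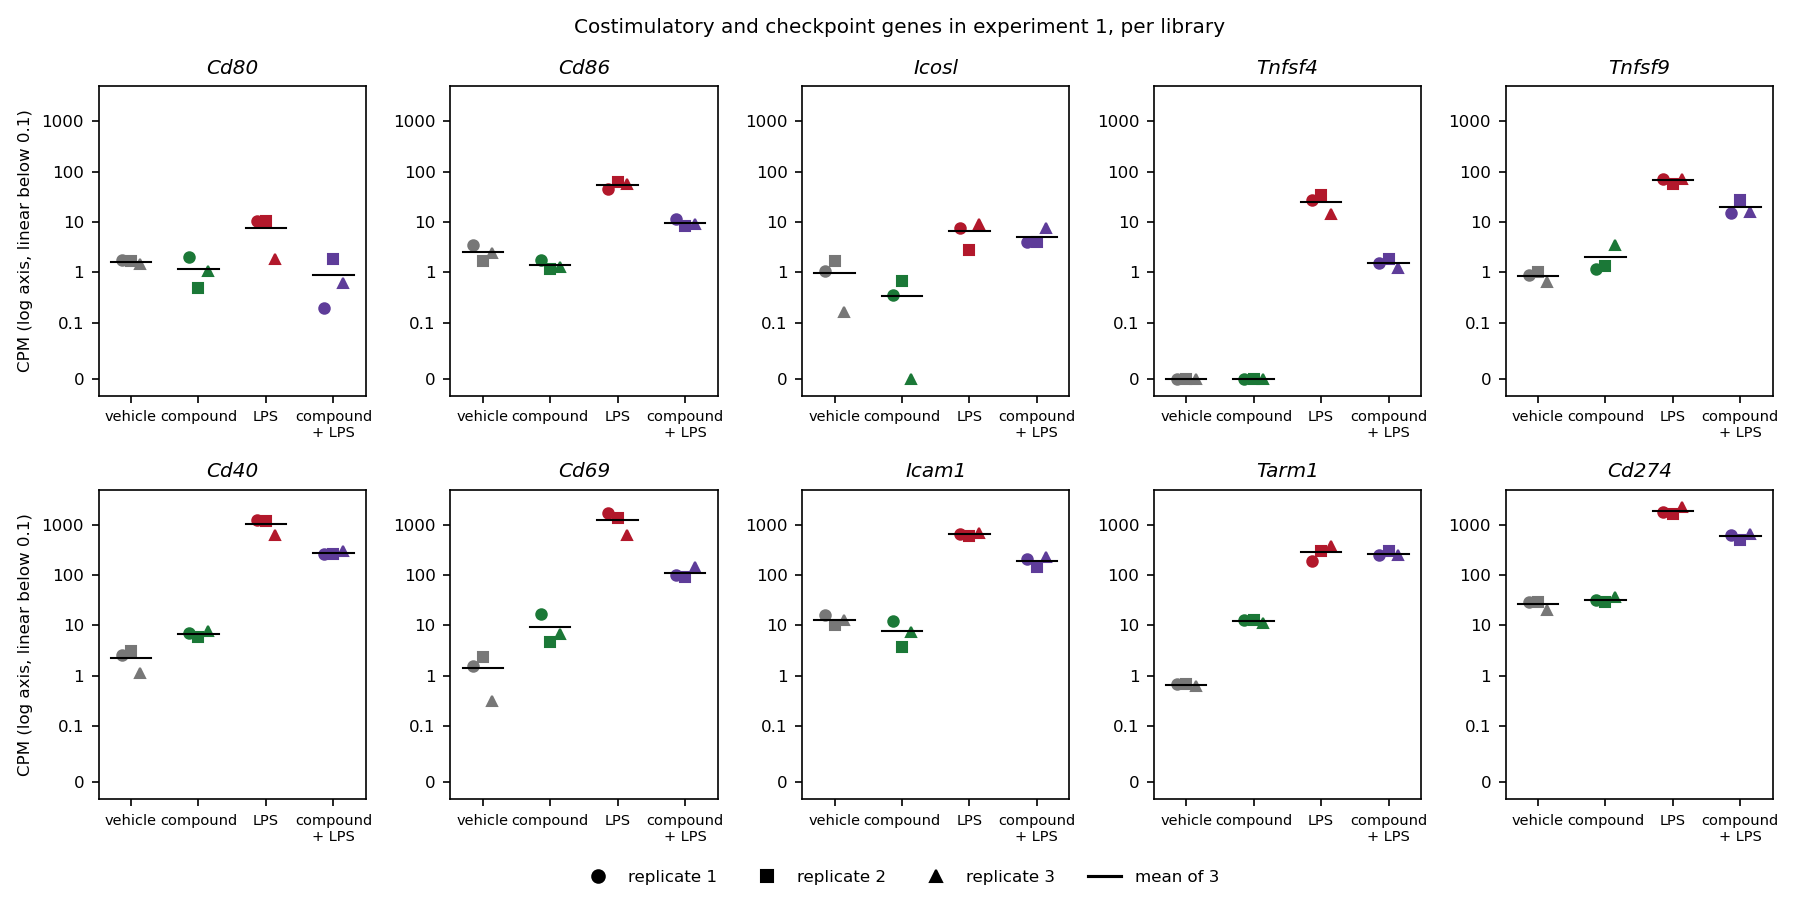
Levels of the 10 members in the 12 libraries of experiment 1, in CPM on a log axis that is linear below 0.1, with 1 panel per gene. Symbols are replicates and short lines are means of 3. Every LPS library lies above every vehicle library in all panels, and the compound plus LPS libraries lie below the LPS libraries for 7 genes, while those of Cd80, Icosl and Tarm1 overlap them. Of all tested genes, 44.0% do not overlap between LPS and vehicle. Between compound plus LPS and LPS, 29.6% do not (18.9% higher and 10.7% lower).

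Compound pretreatment did not abolish the response to LPS for most members. Between compound plus LPS and compound alone, 9 of the 10 were called higher, where 18.9% of all genes were called (11.4% higher and 7.56% lower), and Cd80 was the exception. The median was 4.07, or 3.79 with Tnfsf4 set to its lower bound, beside -0.06 over all genes. The 2 responses were compared directly by the interaction, which is the log2 response to LPS with the compound minus the response without it. It was below 0 and called for Cd40, Cd69, Tnfsf9, Tarm1 and Cd274, where 2.91% of all genes were called (1.39% higher and 1.52% lower). The median was -2.86 over the 9 members that allow the estimate, beside 0.17 over all genes. For Cd40, Cd69 and Tarm1 the smaller response stands beside a higher level with the compound alone, and for Tarm1 beside a level after LPS that did not differ detectably. These comparisons share libraries, so they do not count as separate evidence.

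**Figure D2:**
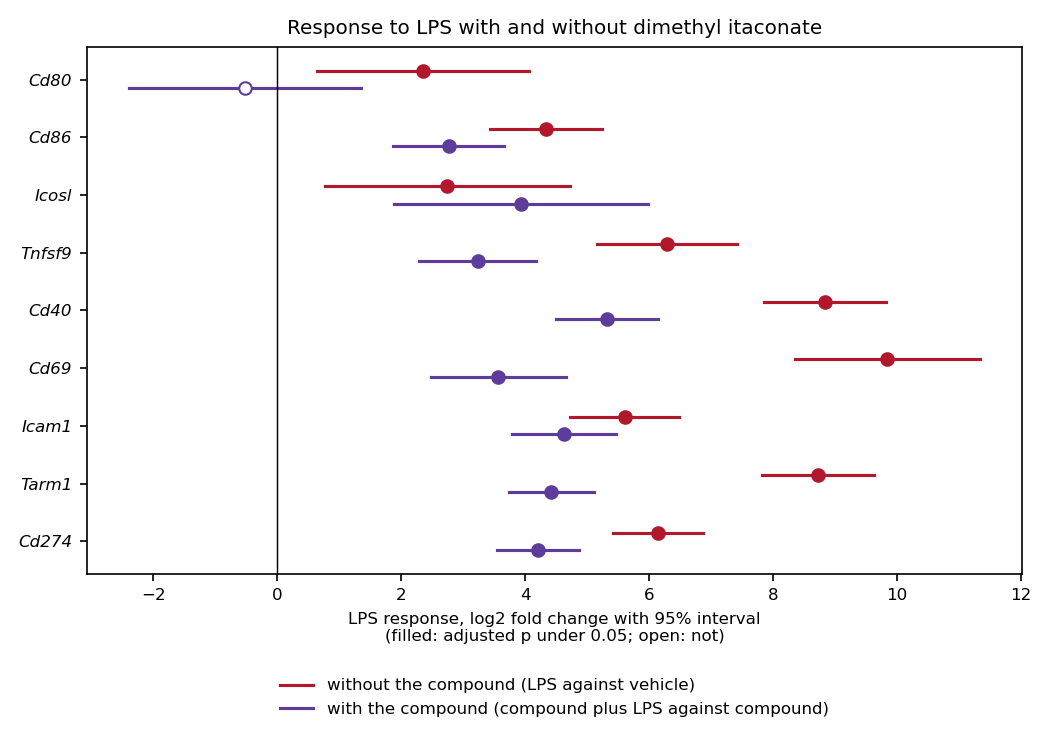
Response to LPS as a log2 fold change with its 95% interval, without the compound (LPS against vehicle) and with it (compound plus LPS against compound), for the 9 members with a fold. Tnfsf4 is left out because it was at 0 in both unstimulated groups. The response with the compound is the smaller for 8 genes and the larger for Icosl. Intervals with and without the compound overlap for Cd80, Cd86, Icam1 and Icosl, and the interaction was not called for these genes.

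Cd40 encodes the receptor through which helper T cells license an antigen-presenting cell. Its level was 2.62, 3.06 and 1.12 CPM in the vehicle libraries and 7.06, 5.78 and 7.76 CPM with the compound. After LPS it was 1228, 1184 and 630 CPM, and with compound plus LPS 267, 266 and 295 CPM. The groups did not overlap in any of these pairings, and LPS replicate 3 was at 0.522 times the mean of the other two LPS libraries. LPS raised Cd40 by 8.83 ± 0.47 on the log2 scale, which is 456-fold (adjusted p = 4.7e-10). The compound alone raised it 3.10-fold (log2 1.63 ± 0.39, adjusted p = 0.027). That call was lost on leaving out vehicle replicate 1 or 3, any compound replicate or compound plus LPS replicate 1 (adjusted p from 0.0539 to 0.170). In LPS-treated cells the compound lowered Cd40 3.68-fold (log2 -1.88 ± 0.33, adjusted p = 0.00090), to 27.2% of the LPS mean, or 22.9% without LPS replicate 3. With the compound, LPS still raised it 39.9-fold, and the interaction was -3.51 ± 0.51 (adjusted p = 0.00066).

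Cd80 and Cd86 encode the paired B7 ligands of CD28, which also bind the inhibitory receptor CTLA-4. Cd80 was low throughout, with 1.75, 1.70 and 1.44 CPM in the vehicle libraries and 2.00, 0.495 and 1.05 CPM with the compound. LPS libraries held 10.6, 10.7 and 1.82 CPM, and compound plus LPS libraries 0.196, 1.84 and 0.621 CPM. LPS replicate 3, which rests on 1 count, lay just above the highest vehicle library and inside the range of the compound plus LPS group. LPS raised Cd80 5.09-fold (log2 2.35 ± 0.81, adjusted p = 0.032), and 6 of the 12 fits that left out 1 library lost this call (adjusted p from 0.0512 to 0.111). Those 6 left out any of the vehicle replicates, compound replicate 3, or LPS replicate 1 or 2. Without LPS replicate 3 the difference was 2.72 (adjusted p = 0.012). After LPS the compound lowered Cd80 9.80-fold (log2 -3.29 ± 0.89, adjusted p = 0.018), and the call was lost without compound plus LPS replicate 1 (0.099) or 3 (0.0729), while without compound plus LPS replicate 2 the difference was -4.38 (0.0209). Between compound plus LPS and compound alone the log2 difference was -0.51 with an interval from -2.39 to 1.36, so no response to LPS was detectable there. The group sums behind these values were 32 counts for vehicle, 30 for compound, 52 for LPS and 9 for compound plus LPS.

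Cd86 was better covered. Its level was 3.49, 1.70 and 2.40 CPM with vehicle and 1.76, 1.16 and 1.26 CPM with the compound, 2 groups that overlapped. It reached 45.7, 61.2 and 56.3 CPM after LPS and 11.6, 8.27 and 9.01 CPM after compound plus LPS. The 3 LPS libraries were close to each other and stood above all others. LPS raised Cd86 20.2-fold (log2 4.33 ± 0.43, adjusted p = 4.4e-07). Prior compound lowered the LPS level 5.60-fold (log2 -2.48 ± 0.39, adjusted p = 0.00033), to 17.7% of the LPS mean. With the compound the response to LPS was 6.79-fold, and the interaction of -1.57 ± 0.59 did not pass the test (adjusted p = 0.16).

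Icosl encodes the ligand of ICOS, a costimulatory receptor of activated T cells. Its levels were near the limit of counting, at 1.07, 1.70 and 0.160 CPM with vehicle and 0.353, 0.661 and 0 CPM with the compound. LPS libraries held 7.62, 2.81 and 9.08 CPM and compound plus LPS libraries 3.92, 3.98 and 7.46 CPM. The LPS groups with and without the compound overlapped, and each lay above its unstimulated group. LPS raised Icosl 6.70-fold (log2 2.74 ± 0.94, adjusted p = 0.031) and, with the compound, 15.3-fold (log2 3.93 ± 0.97, adjusted p = 0.0071). The first call was lost without vehicle replicate 1 (adjusted p = 0.0847), vehicle replicate 3 (0.129) or LPS replicate 1 (0.0984). The compound left 78.7% of the LPS mean, a log2 difference of -0.29 with an interval from -2.08 to 1.51. That interval still includes a lowering of the size seen for Cd40 (-1.88), so a change of that size is not excluded at this depth. The response to LPS with the compound was 4.71 without compound replicate 2 and 3.29 without compound replicate 3, both called.

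Tnfsf4 encodes OX40 ligand, which prolongs the response of activated T cells. It was at 0 in all 6 libraries without LPS. It reached 27.5, 34.3 and 14.5 CPM after LPS and 1.57, 1.84 and 1.24 CPM after compound plus LPS. All 3 LPS libraries stood above all compound plus LPS libraries, and LPS replicate 3 was at 0.471 times the mean of the other two. Against a floor of 3 counts over the unstimulated group, LPS gave a level at least 165-fold higher by mean CPM without the compound (adjusted p = 4.8e-06) and at least 12.4-fold higher with it (adjusted p = 0.0016). With the counts of each group pooled, these bounds were 185-fold and 12.5-fold. The compound lowered the LPS level 16.6-fold (log2 -4.05 ± 0.66, adjusted p = 0.00098), leaving 6.09% of the LPS mean, or 5.02% without LPS replicate 3. With both unstimulated groups at 0, no interaction was estimated.

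Tnfsf9 encodes 4-1BB ligand, which sustains CD8 T cell responses. Vehicle libraries held 0.873, 1.02 and 0.640 CPM and compound libraries 1.18, 1.32 and 3.46 CPM. After LPS the level was 71.2, 56.2 and 72.6 CPM, and after compound plus LPS 14.9, 27.6 and 15.8 CPM. The compound libraries did not overlap the vehicle libraries, with replicate 3 the highest, as 30.6% of all tested genes did not. The 2.43-fold difference did not pass the test (log2 1.28 ± 0.54, adjusted p = 0.285). LPS raised Tnfsf9 78.3-fold (log2 6.29 ± 0.54, adjusted p = 6.5e-08) and, with the compound, 9.41-fold (log2 3.23 ± 0.45, adjusted p = 3.6e-05). In LPS-treated cells the compound lowered it 3.43-fold (log2 -1.78 ± 0.41, adjusted p = 0.0065). That call was lost without compound plus LPS replicate 1 (adjusted p = 0.053). The interaction was -3.06 ± 0.68 (adjusted p = 0.019), and it was lost without vehicle replicate 1 or 3, compound replicate 3, or compound plus LPS replicate 1 or 3 (adjusted p from 0.0587 to 0.0988). Without compound replicate 3 the interaction was -2.35 and the response to LPS with the compound was 3.93.

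Icam1 encodes the adhesion ligand of the integrin LFA-1, which holds T cell and presenting cell together. Its level was 16.2, 10.2 and 12.6 CPM with vehicle and 12.0, 3.80 and 7.55 CPM with the compound. LPS brought it to 657, 599.9 and 676 CPM, and compound plus LPS to 205, 146 and 232 CPM. The LPS libraries were within a narrow range and stood above all others, while the vehicle and compound groups overlapped. LPS raised Icam1 48.7-fold without the compound (log2 5.61 ± 0.42, adjusted p = 1.2e-08) and 24.7-fold with it (log2 4.63 ± 0.40, adjusted p = 1.3e-07). The interaction of -0.98 ± 0.50 did not pass the test (adjusted p = 0.31). After LPS the compound lowered Icam1 3.31-fold (log2 -1.73 ± 0.35, adjusted p = 0.0027), to 30.2% of the LPS mean.

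Cd69 encodes an early activation marker that holds cells in tissue by acting on the sphingosine 1-phosphate receptor. Vehicle libraries held 1.55, 2.38 and 0.320 CPM, and compound libraries 16.6, 4.62 and 6.81 CPM, with replicate 1 well above the other two. Its level was 1689.6, 1341 and 621 CPM after LPS and 98.2, 90.0 and 147 CPM after compound plus LPS. None of these groups overlapped, and LPS replicate 3 was at 0.410 times the mean of the other two. LPS raised Cd69 918-fold (log2 9.84 ± 0.71, adjusted p = 9.6e-09), and with the compound 11.8-fold (log2 3.57 ± 0.52, adjusted p = 5.8e-05). The interaction of -6.28 ± 0.78 was the most negative of the 9 (adjusted p = 0.00023). The compound alone raised Cd69 7.10-fold (log2 2.83 ± 0.60, adjusted p = 0.012). This call was lost without vehicle replicate 1 (adjusted p = 0.0621), vehicle replicate 3 (0.0831) or compound replicate 1 (0.0925). Without that last library the 3 differences, for the compound alone, the LPS response with the compound and the interaction, were 2.13, 4.27 and -5.57, and the latter 2 stayed called. In LPS-treated cells the compound lowered Cd69 10.9-fold (log2 -3.45 ± 0.51, adjusted p = 0.00017), leaving 9.18% of the LPS mean, or 7.37% without LPS replicate 3.

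Tarm1 encodes an activating receptor of myeloid cells that signals through the Fc receptor gamma chain. Its level was 0.679, 0.679 and 0.640 CPM with vehicle and 12.9, 12.9 and 11.4 CPM with the compound alone. After LPS it was 195, 306 and 380 CPM, and after compound plus LPS 246, 298 and 256 CPM. The compound libraries stood well above the vehicle libraries and had little spread, whereas the 2 LPS groups overlapped. Vehicle values rest on 7, 2 and 4 counts, so their closeness says little about the spread, and folds against vehicle rest on these counts. The compound alone raised Tarm1 17.98-fold (log2 4.17 ± 0.40, adjusted p = 1.8e-05), and no fit without 1 library lost this call. LPS raised it 422-fold (log2 8.72 ± 0.43, adjusted p = 4.7e-10). With the compound, LPS raised it 21.5-fold (log2 4.42 ± 0.33, adjusted p = 2.3e-08), and the interaction was -4.30 ± 0.49 (adjusted p = 0.00012). Compound plus LPS differed from LPS by -0.13 on the log2 scale, with an interval from -0.72 to 0.46, which does not include a lowering of 2-fold. Without LPS replicate 3, which was at 1.52 times the mean of the other two, that difference was 0.08.

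Cd274 encodes PD-L1, the checkpoint ligand that restrains T cells through PD-1. It was present before stimulation, at 29.9, 29.2 and 20.6 CPM with vehicle and 31.4, 28.7 and 36.3 CPM with the compound, groups that overlapped. LPS libraries held 1762, 1609 and 2248 CPM, and compound plus LPS libraries 618, 502 and 660 CPM. Here LPS replicate 3 was the highest LPS library, at 1.33 times the mean of the other two. LPS raised Cd274 70.4-fold (log2 6.14 ± 0.35, adjusted p = 7.7e-10) and, with the compound, 18.4-fold (log2 4.20 ± 0.32, adjusted p = 2.8e-08). After LPS the compound lowered it 3.15-fold (log2 -1.66 ± 0.28, adjusted p = 0.00068), to 31.7% of the LPS mean, or 35.2% without LPS replicate 3. The interaction was -1.93 ± 0.40 (adjusted p = 0.013), and this call was lost without vehicle replicate 3 (adjusted p = 0.0558).

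**Figure D3:**
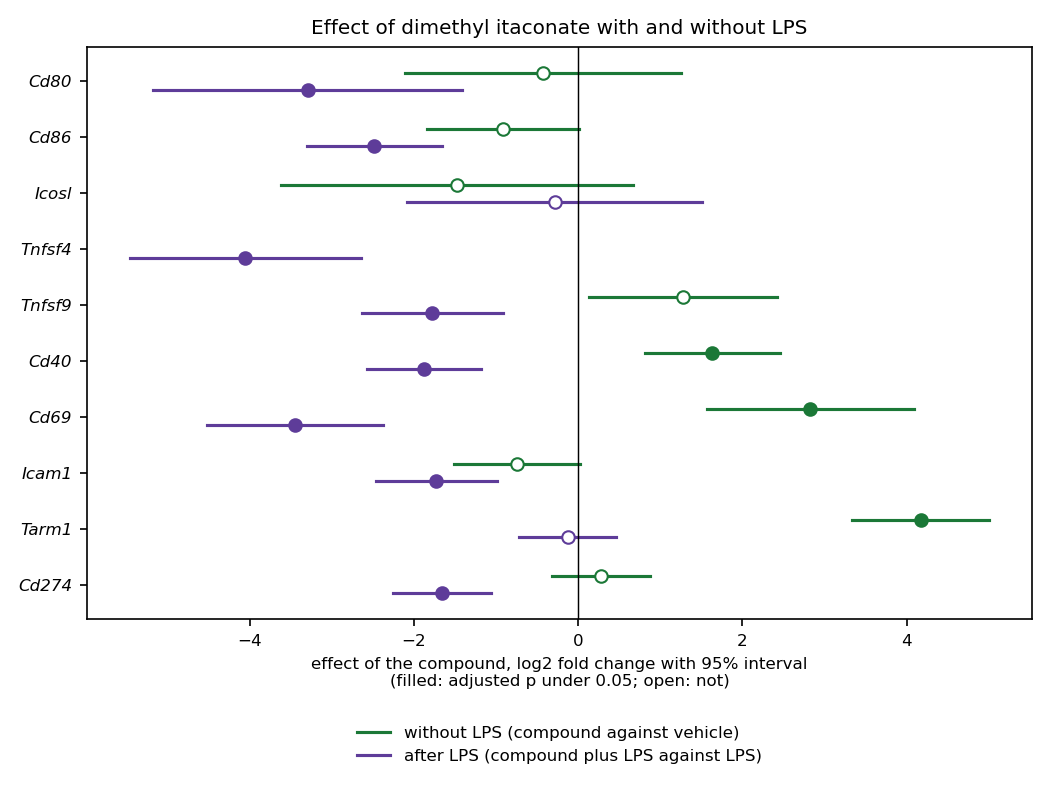
Effect of the compound as a log2 fold change with its 95% interval, without LPS (compound against vehicle) and after LPS (compound plus LPS against LPS). Tnfsf4 has only the second value because it was at 0 without LPS. Filled points are called, with Cd40, Cd69 and Tarm1 higher without LPS and 8 genes lower after LPS.

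By the share of the LPS level that remained with the compound, the members ran from Tnfsf4 (6.09%), Cd69 (9.18%) and Cd80 (11.5%) through Cd86 (17.7%), Cd40 (27.2%), Tnfsf9 (29.2%), Icam1 (30.2%) and Cd274 (31.7%) to Icosl (78.7%) and Tarm1 (91.0%). Without LPS replicate 3 the share was 8.32% for Cd80, 98.2% for Icosl and 107% for Tarm1. The library ranges of Cd40, Tnfsf9, Icam1 and Cd274 overlapped, from 26.3% to 29.0% for Cd40, 22.4% to 41.3% for Tnfsf9, 22.7% to 36.1% for Icam1 and 26.8% to 35.2% for Cd274. No test was made between members.

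Across the 12 libraries of experiment 1, member levels on the log2 CPM scale (prior count 2) correlated with Pearson r from 0.183 (Cd80 and Tarm1) to 0.987 (Cd40 and Cd274). The libraries share the 4 conditions, so these values describe the common step with LPS and carry no test. Cd80, the member with the fewest counts after LPS and compound, was the least alike, with r to the others of at most 0.664 (Tnfsf4). The most similar genes over all those tested were, for Cd40, the interferon-inducible GTPase gene Gbp5 (r = 0.993) and the kinase gene Jak2 (0.991). For Cd274 they were Gbp2 (0.994) and the cytokine gene Il6 (0.992), for Cd69 A530032D15Rik (0.991) and the cytokine gene Il1b (0.982), and for Icam1 Tnfaip3, an NF-kB feedback inhibitor (0.991), and Phf11b (0.991). Tnfsf9 was closest to Rasgrp1 (0.993) and Gbp5 (0.985), and Tnfsf4 to Kat6a (0.988) and Phf6 (0.988). Cd86 was most like Hdc, the gene for histidine decarboxylase (0.987), and Col27a1 (0.983), and Cd80 most like Fbxo42 (0.910) and Rgs1 (0.908). Icosl was closest to Tyk2 (0.975) and 9330175E14Rik (0.970), and Tarm1 to the integrin gene Itgb8 (0.984) and Ifi205 (0.974), whose reads may be shared with its near-identical relatives.

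Genes around the members in the same pathways moved less uniformly. As a background for each list below, 34.3% of all tested genes were called for LPS against vehicle and 2.84% for the compound alone. The share was 15.9% for compound plus LPS against LPS and 18.9% for compound plus LPS against compound. Of 16 further costimulatory genes of antigen-presenting cells, 8 were tested, and LPS raised 5 and lowered 1 (median log2 difference 1.33 beside -0.24 over all genes). Tnfsf15, a further TNF-family ligand, rose 140-fold (adjusted p = 1.5e-06), from at most 0.679 CPM in the vehicle libraries to 86.4, 93.2 and 10.9 CPM, and its log2 difference was 7.13, or 8.0 without vehicle replicate 1. Cd83, a marker of mature antigen-presenting cells that stabilizes CD86 at the surface, rose 27.7-fold (adjusted p = 4.2e-07), from 7.76, 1.02 and 8.32 CPM to 168, 163 and 178 CPM. Cd84, a homotypic SLAM receptor, fell 3.03-fold (adjusted p = 0.00012). After LPS the compound lowered 3 of these 8 genes and raised 1 (median -0.95 beside 0.13). Cd83 fell 12.8-fold to 13.9, 13.2 and 12.4 CPM (adjusted p = 3.1e-05), a larger fold than for its partner Cd86, a difference between genes that was not tested. Slamf7, a SLAM receptor, fell 3.28-fold (adjusted p = 0.0011), from 2756, 3987 and 2216 CPM to 912, 1103 and 716 CPM. Cd84 was 1.72-fold higher (adjusted p = 0.046), a call that most alternatives lost. With the compound alone, 1 of the 8 was called, the SLAM receptor gene Ly9, which was 5.64-fold higher (adjusted p = 0.0030) with widely spread compound libraries of 35.4, 75.5 and 179 CPM. Its log2 difference was 2.49, or 1.70 without compound replicate 3 (adjusted p = 0.0237).

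Of 19 further checkpoint and inhibitory surface genes, 11 were tested in experiment 1. LPS raised 6 and lowered 2 (median 1.35 beside -0.24). Cd200, whose product restrains myeloid cells through CD200R, rose 22.5-fold (adjusted p = 1.6e-06), to 61.6, 87.1 and 29.1 CPM, and Lgals9, the galectin-9 gene, rose 7.45-fold (adjusted p = 0.00029). Vsir, the gene for the checkpoint ligand VISTA, fell 5.95-fold (adjusted p = 0.00026), and Sirpa, the receptor for the CD47 signal, fell 2.00-fold (adjusted p = 0.015). For Vsir, LPS replicate 3 held 3.63 CPM on 2 counts, against 40.4 and 32.0 CPM in LPS replicates 1 and 2. The Sirpa call was lost without vehicle replicate 2 (adjusted p = 0.0703) and in a fit of only the 2 groups (0.0938). After LPS the compound lowered 4 of the 11 and raised none (median -0.35 beside 0.13). Cd200 fell 6.25-fold, to 12.0, 7.35 and 9.63 CPM (adjusted p = 0.00064). Havcr2, the TIM-3 gene, was called 8.05-fold lower (adjusted p = 0.041) on 4 counts against 19, and most alternatives lost that call. None of the 11 was called for the compound alone.

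Among 10 integrin and adhesion relatives of Icam1, 9 were tested. LPS raised 4 and lowered none (median 0.19), where 34.3% of all genes were called (16.0% higher). Vcam1, a ligand of integrin VLA-4, rose 25.7-fold (adjusted p = 2.4e-06). The compound after LPS raised 1 and lowered 2 (median -0.80). The 2 chains of LFA-1, the receptor that binds ICAM-1, moved apart: Itgb2 rose 2.83-fold (adjusted p = 0.0040) while Itgal fell 10.3-fold (adjusted p = 0.00024). LPS replicate 3 held 2012 CPM of Itgal against 467 and 372 in the other two, and the compound plus LPS libraries 92.2, 68.6 and 114. Without LPS replicate 3 the log2 difference of Itgal was -2.22 in place of -3.37 (adjusted p = 1.3e-05). With the compound alone, none of the 9 was called.

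The 10 genes listed for CD40 signalling and non-canonical NF-kB were all tested. LPS raised 7 and lowered none (median 1.77), with Traf1, a CD40-associated adaptor, 30.2-fold higher (adjusted p = 1.55e-07) and Nfkb2 8.68-fold higher (adjusted p = 2.1e-06). After LPS the compound raised 1, the adaptor gene Traf5 (3.83-fold, adjusted p = 0.00036), and lowered 1, Traf1 (2.96-fold, adjusted p = 0.0087; median of the list -0.18). The Traf1 call was lost without compound plus LPS replicate 1 (adjusted p = 0.0703) or 2 (0.0512). Traf5 went from 45.7, 39.9 and 36.3 CPM with LPS to 148, 131 and 193 CPM with compound plus LPS. Among 8 relatives and adaptors of Tarm1, 5 were tested, and LPS raised 2 (median -0.45, with 34.3% of all genes called). These were Syk, the kinase downstream of such receptors (2.63-fold, adjusted p = 0.0018), and Fcer1g, the gamma chain itself (1.76-fold, adjusted p = 0.044). The Fcer1g difference turned to -0.16 on library totals alone, and that of Syk fell to 0.44 (adjusted p = 0.23). None of the 5 was called for the compound alone or for compound plus LPS against LPS. Of the 7 lymphocyte receptors that bind the members, 1 passed the filter, Cd28, which fell 25.0-fold with LPS from 18.8, 12.6 and 28.5 CPM to 0, 2.25 and 0 (adjusted p = 0.00017), and Cd40lg and Ctla4 were at 0 in all 18 libraries. Without LPS replicate 1 the log2 difference of Cd28 was -3.62 in place of -4.64, and without LPS replicate 2 the LPS group was at 0.

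Between compound plus LPS and compound alone, LPS raised 4 and lowered 1 of the 8 costimulatory genes, raised 3 and lowered 1 of the 11 checkpoint genes, and raised 3 of the 9 adhesion genes. It raised 6 of the 10 CD40 signalling genes and 2 of the 5 Tarm1 relatives (Syk and Fcer1g, calls that several alternatives lost), and lowered Cd28. The largest rises were Vcam1 (22.9-fold), Traf1 (22.3-fold), Tnfsf15 (16.3-fold), Traf5 (12.6-fold) and Cd83 (7.11-fold), with adjusted p from 1.7e-07 for Traf5 to 0.00027 for Cd83. Without compound replicate 3 the log2 difference of Vcam1 was 5.27 in place of 4.52. Cd28 fell 12.8-fold (adjusted p = 0.00023).

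In experiment 2 the knockout was checked first on its own gene. Acod1 stood at 4131, 4665 and 4225 CPM in the wild-type libraries and 28.4, 14.8 and 31.4 CPM in the Irg1-/- libraries, a 173-fold difference (log2 -7.43 ± 0.32, adjusted p = 4.8e-07). After 24 h of LPS with interferon gamma, 9 of the 10 members passed the filter among 9491 genes tested, and Icosl did not. None of the 9 was called by edgeR without a replicate block, where 0.0632% of genes were called (0.0105% higher and 0.0527% lower). At an unadjusted p under 0.05 there was 1 member, and DESeq2 gave 0 calls and 1 at an unadjusted p under 0.05. Same-numbered libraries of the 2 genotypes deviated together, so replicate number was also fitted as a block. With it, 1 of the 9 was called, Cd86, where 6.26% of genes were called (2.90% higher and 3.36% lower). The members' median log2 difference was -0.21 beside 0.01 over all genes.

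Cd86 stood at 180, 170 and 226 CPM in wild-type and 117, 125 and 168 CPM in Irg1-/- libraries. The groups did not overlap, and the knockout was lower in each of the 3 same-numbered pairs. The difference was 1.40-fold, or -0.49 ± 0.21 on the log2 scale without the block (adjusted p = 0.67) and -0.49 ± 0.11 with it (adjusted p = 0.0020). Cd40 showed 168, 155 and 152 CPM against 132, 142 and 128 CPM (log2 -0.24, interval -0.61 to 0.13), and with the block its adjusted p was 0.21. Cd69 showed 76.9, 78.8 and 73.5 CPM against 55.0, 55.1 and 68.7 CPM (log2 -0.36, interval -0.76 to 0.05), with an adjusted p of 0.11 under the block. In both genes the genotypes did not overlap and all 3 pairs had the knockout lower, without passing the test. Of all 9491 genes tested, 13.4% had genotypes that did not overlap (6.12% higher and 7.24% lower in the knockout).

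For the remaining members the genotypes overlapped. Cd274 stood at 5135, 3337 and 2874 CPM in wild type and 4156, 2959 and 2688 CPM in the knockout, with replicate 1 the highest in each (log2 -0.21, interval -0.77 to 0.34). Icam1 was at 143, 172 and 177 CPM against 123, 137 and 169 CPM (log2 -0.20, interval -0.62 to 0.22). Both were lower in the knockout in 3 of 3 pairs, and with the block their adjusted p was 0.20 and 0.32. Tarm1 was at 33.8, 35.7 and 29.1 CPM against 33.9, 38.4 and 37.3 CPM (log2 0.15, interval -0.28 to 0.58). Tnfsf9 was at 11.9, 15.6 and 17.4 CPM against 17.7, 23.8 and 12.8 CPM, and Cd80 at 12.6, 11.8 and 10.2 CPM against 14.1, 11.4 and 10.02 CPM. Tarm1 was higher in the knockout in 3 of 3 pairs, Tnfsf9 in 2 and Cd80 in 1. Tnfsf4 had few counts, at 3.31, 5.74 and 3.53 CPM against 4.00, 0.265 and 1.38 CPM, and its log2 difference of -1.07 carried an interval from -2.49 to 0.34. Icosl, untested, held 1.33, 0.957 and 1.99 CPM against 2.28, 2.12 and 1.73 CPM.

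**Figure D4:**
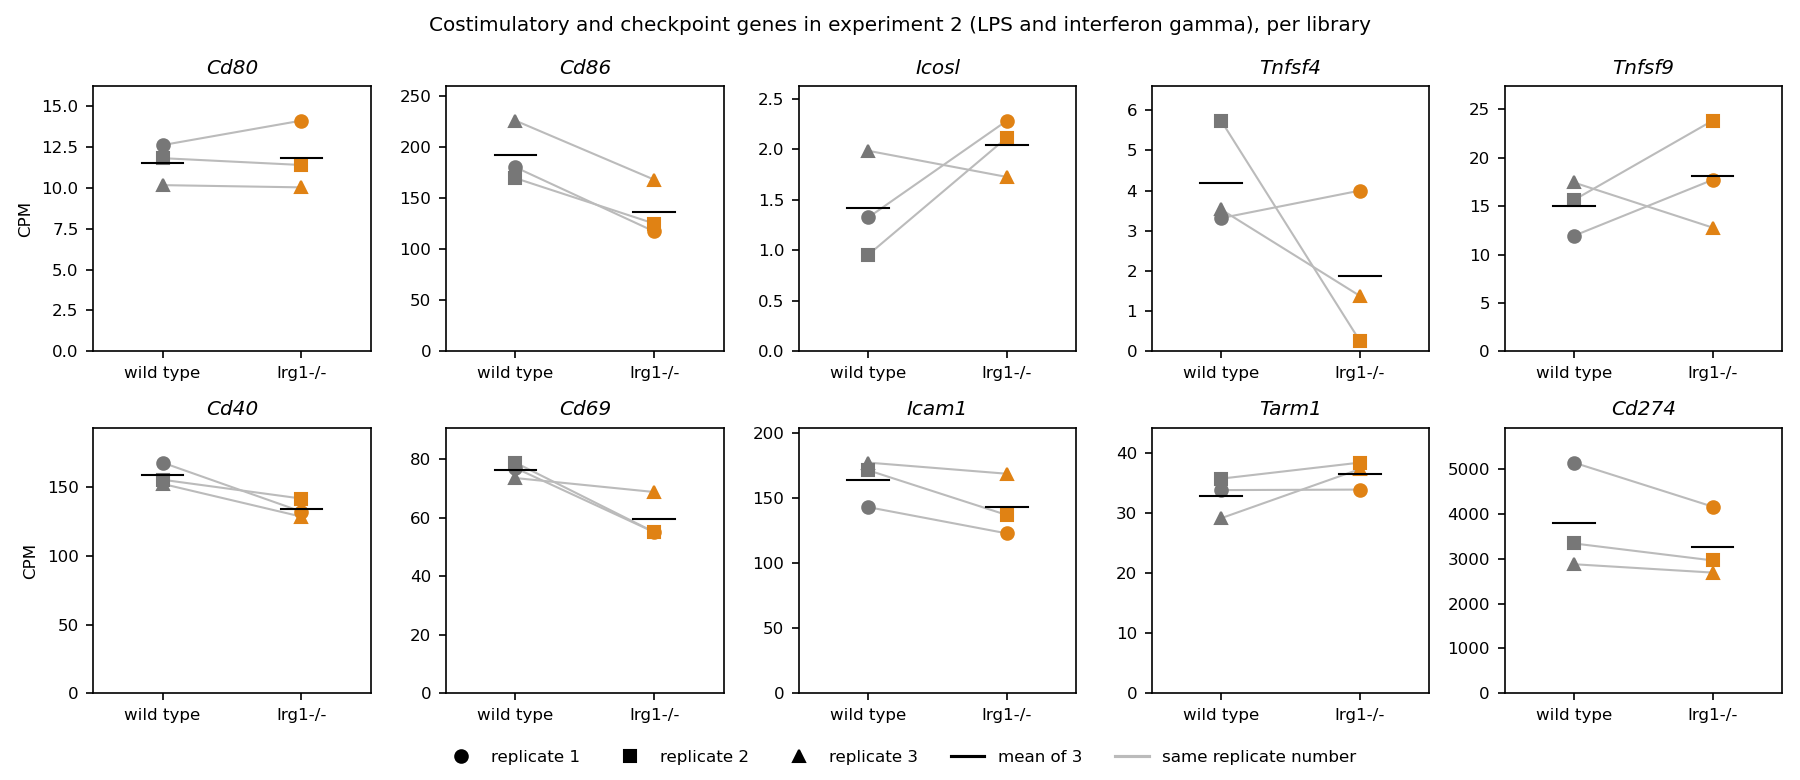
Levels of the 10 members in experiment 2 in CPM, with 1 panel and 1 linear axis from 0 per gene, for wild-type and Irg1-/- macrophages after LPS and interferon gamma. Grey lines join libraries of the same replicate number and short black lines are means of 3. The genotypes do not overlap for Cd86, Cd40 and Cd69, and they overlap for the other 7; of all tested genes, 13.4% do not overlap.

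Of the pathway lists, no gene was called between genotypes by edgeR with the filter and without the block, while Cd83 was called without the block by DESeq2 and by edgeR with no filter. With it, 3 of 8 costimulatory genes, 1 of 10 CD40 signalling genes and 1 of 5 Tarm1 relatives were lower, 1 of 9 adhesion genes was higher, and none of 12 checkpoint genes or 2 lymphocyte receptors was called. Over all tested genes, 6.26% were called with the block. Cd83 was 2.22-fold lower in Irg1-/- cells, at 45.1, 46.6 and 47.4 CPM in wild type and 19.4, 19.9 and 23.1 CPM in the knockout. The genotypes stood apart with little spread, and the adjusted p was 5.1e-06 with the block and 0.059 without it, and without the block 0.0021 by DESeq2 and 0.0083 with no filter on low counts. Tnfsf15 was 1.74-fold lower (adjusted p = 0.0065 with the block and 0.40 without), and Traf1 1.44-fold lower (0.020 and 0.63). Tyrobp, the adaptor DAP12, was 1.35-fold lower (0.0049 and 0.75), and its genotypes overlapped. Itgam, the CD11b gene and itself one of the macrophage markers, was 1.48-fold higher (7.5e-05 and 0.52). Summed dendritic cell markers, led by Ccr7, lay between 20.7 and 25.9 CPM in wild type and between 14.8 and 23.2 CPM in the knockout, and their part in these differences was not tested.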

How the data were processed

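Count tables of whole-number reads per gene, as deposited by the authors, were used for 12 libraries of experiment 1 and 6 of experiment 2. Per the labels' protocols, barcoded oligo-dT primers were used for reverse transcription, and the pooled cDNA was enriched by 12 PCR cycles into strand-specific 3′-end libraries. Per the submitters' processing notes, STAR, HTSeq and DESeq2 were used with mm10. Versions and the strand option are not given in the sources used here. No molecular identifiers are named, so errors of single counts cover counting only. The treatment text of the wild-type libraries in experiment 2 names Irg1-/- cells, and their genotype tag, which was followed, says wild type. Gene identifiers were matched to symbols for 23969 of 24052 genes.

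Counts were tested with edgeR 4.0.16 in R 4.3.3 by the quasi-likelihood test with TMM scaling, after a filter on low counts (minimum count 10), and genes were called at a Benjamini-Hochberg adjusted p under 0.05 across all tested genes. All 4 groups of experiment 1 entered 1 fit, and experiment 2 was fitted on its own, with 8 and 4 residual degrees of freedom. A replicate block leaves fewer, so p-values with the block lean more on the spread estimated across genes. Fitted fold changes carry a prior count of 0.125, and where a group was at 0 the bound on a fold was computed with 3 counts in that whole group. The script was tested on simulated counts. Promoter sequences came from the RefSeq table of GRCm38.p6.

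The members and the gene lists were chosen with earlier results of these data known. All 10 members were described. Of each pathway list and comparison, at most the 2 called genes with the largest change in each direction were named, and for each member the 2 genes most correlated with it. The values of 1 gene of the adhesion list, which enters that list's counts and medians, are not reported here. Same-numbered libraries were checked for pairing by the correlation of their deviations from the group means. It was 0.374, 0.354 and 0.455 in experiment 2, which was taken as paired, and from -0.141 to 0.231 in experiment 1, which was not. Alternatives were DESeq2 1.42.0, its size factors in edgeR, library totals alone, no filter, a replicate block, fits of only the 2 groups compared, and each library left out in turn. Their use on pathway genes and Acod1 was added after the data were seen.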

Additional observations from a re-analysis of the deposited data

Results flagged for a closer look

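For 5 members the response to LPS differed between cells with and without the compound, by a test of the difference itself. The interaction was -3.51 for Cd40, -1.93 for Cd274, -6.28 for Cd69, -3.06 for Tnfsf9 and -4.30 for Tarm1 on the log2 scale. Cd40, Cd69 and Tarm1 had starting levels with the compound that were 3.10-fold, 7.10-fold and 17.98-fold above vehicle, and Tarm1 reached a level after LPS that did not differ detectably from that without the compound. Of the pathway genes, the response was larger with the compound for the CD40 adaptor gene Traf5 (2.07, adjusted p = 0.013), a call lost without compound replicate 3 (0.0506) or compound plus LPS replicate 3 (0.0568). It was smaller for Cd200 (-3.72, adjusted p = 0.0036) and Slamf7 (-2.72, adjusted p = 0.0016). Over all genes tested, 1.39% had a called positive and 1.52% a called negative interaction.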

How the results depend on the processing

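Of 947 values of single members under the alternatives, 905 kept their direction and side of the threshold, 33 lost a call, 1 gained one and 8 changed sign. The sign changes concerned differences that were not called. Compound plus LPS against LPS was 0.0925 for Tarm1 on library totals alone. With single libraries left out it ran from -0.284 to 0.0797 for Tarm1 and from -0.652 to 0.0541 for Icosl. Compound plus LPS against compound ran from -1.62 to 0.0774 for Cd80. Knockout against wild type ran from -0.101 to 0.172 for Cd80 and from -0.418 to 0.0738 for Cd274. With single libraries left out, the number of members called ran from 8 to 10 for LPS against vehicle, 1 to 3 for the compound alone, 6 to 8 for compound plus LPS against LPS, 9 to 9 against compound, 3 to 5 for the interaction and 0 to 0 for the knockout. The compound's count was 1 without vehicle replicate 1, vehicle replicate 3 or compound replicate 1, and the interaction's count was 3 without vehicle replicate 3. Fits of only the 2 groups compared called 8, 3, 7 and 8 members in the first 4 comparisons, where they tested 8, 7, 9 and 8. Fewer libraries entered these fits, and the cause was not tested further. Of 817 values of pathway genes, 746 kept their call, 63 lost it, 7 gained one and 1 changed sign (Fcer1g for LPS against vehicle, -0.16 on library totals alone).

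With replicate number as a block, which experiment 1 does not support as a pairing, the members called were 8, 3, 8, 9 and 5 in the 5 comparisons above, and Cd80 (adjusted p = 0.0747) and Icosl (0.0523) lost their LPS call. Experiment 2 was taken as paired on correlations within these same data. There, 1 member was called with the replicate block and 0 without, and 6.26% of all genes with it against 0.0632% without. The block changed no other member's call, and in experiment 1 it ended those of Cd84 (0.0547) and Havcr2 (0.0847) for compound plus LPS against LPS.

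Scaling moved the split of calls over all genes. On library totals alone, higher and lower calls were 853 and 4950 for LPS against vehicle (TMM 1641 and 1888), 72 and 194 for the compound alone (137 and 155), and 901 and 527 for compound plus LPS against LPS (862 and 774). They were 709 and 2027 for compound plus LPS against compound (1170 and 778), 215 and 86 for the interaction (143 and 156) and 3 and 6 for the knockout (1 and 5). DESeq2 size factors gave 1030 and 1014 for compound plus LPS against compound. Totals moved the median of all genes for LPS against vehicle from -0.24 to -1.17. The call for Cd40 with the compound alone (adjusted p = 0.106), those of Cd80 (0.142) and Icosl (0.107) for LPS, and the Tnfsf9 interaction (0.0505) were lost on totals.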

Other observations

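Pdcd1lg2, which encodes PD-L2, the second ligand of PD-1, was read beside Cd274 after its values were seen. In experiment 1 it held 0, 0 and 10.9 CPM after LPS, the last on 6 counts, and at most 1.70 CPM in any other library. In experiment 2 it stood at 11.6, 6.06 and 7.28 CPM in wild-type and 3.05, 4.23 and 4.49 CPM in Irg1-/- libraries, where the genotypes did not overlap and the difference was not called with or without the replicate block.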
